A study of Mus musculus with 6 samples.

Results

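The CCN genes Ccn1, Ccn2, Ccn3, Ccn4 and Ccn5 were followed in fibroblasts sorted from mouse infarct scar. They were chosen as a gene family by symbol, under which Cyr61, Ctgf, Nov, Wisp1 and Wisp2 are older names, and make up 5 of 42256 genes in the table. RNA was sequenced from PDGFRa+ cells, a fraction enriched for fibroblasts by flow cytometry, 7 days after injury. The 4 Htr2b_cKO libraries came from Htr2bfl/flPostnMCM/+ mice, in which the serotonin receptor gene Htr2b is flanked by loxP sites and 1 allele of Postn carries a tamoxifen-inducible Cre. The 2 control libraries came from Htr2bfl/fl mice, which have the floxed gene and no Cre. Both groups were on a mixed 129S2/C57Bl6 background, were injured at the same time and received tamoxifen in their chow from 1 week before injury onward. The labels give no age. The Cre acts where Postn, the periostin gene of activated fibroblasts, is switched on, so cells that never expressed Postn keep the receptor gene. Since no control had the Cre, the Cre itself, the changed Postn allele and the loss of Htr2b cannot be told apart. The comparison asks whether the CCN genes differ in scar fibroblasts after deletion of Htr2b.

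CCN proteins are secreted, cysteine-rich matricellular proteins: they sit in the matrix, bind integrins, proteoglycans and growth factors, and change how cells respond to them, without building fibres themselves. Each is assembled from small modules, and CCN5 lacks the C-terminal cystine-knot module that its relatives carry. CCN2, long known as connective tissue growth factor, is a marker of fibrosis induced by TGF-β and by the mechanically controlled cofactors YAP and TAZ, and CCN1 responds to the same cofactors and to serum as an immediate early gene. CCN4 was found as a Wnt-induced gene, and CCN3 and CCN5 have been described as opposing CCN2 in several settings.

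By coding sequence, the shortest annotated member was Ccn5. The longest coding sequence of Ccn5 (ENSMUSG00000027656, chromosome 2 from 163820861 to 163833146) was 753 nt in 4 coding exons, or 251 codons. Those of the other members had 5 coding exons and between 1044 and 1137 nt. Ccn1 (ENSMUSG00000028195) lies on chromosome 3 from 145646976 to 145649981, and Ccn2 (ENSMUSG00000019997) on chromosome 10 from 24595442 to 24598683. Ccn3 (ENSMUSG00000037362) and Ccn4 (ENSMUSG00000005124) share chromosome 15, from 54745702 to 54754039 and from 66891320 to 66923201. All positions are in the mouse build mm10 (GRCm38). Gm15270, a noncoding transcript of the opposite strand, overlaps Ccn2. It had 16 to 47 estimated counts per library and Ccn2 had 5263 to 13989. If strand was ignored in counting, reads of this pair cannot be told apart.

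The promoter of Ccn1, the most abundant member and the 1 of the 5 matched in the promoter table used, is shown with its motif matches, among them that of TEAD factors, the DNA-binding partners of YAP and TAZ. It is the 250 bases before the transcription start in RefSeq (GRCm38.p6, chr3:145649986-145650235, minus strand), printed 5′ to 3′ with matches in capitals:
Ccn1: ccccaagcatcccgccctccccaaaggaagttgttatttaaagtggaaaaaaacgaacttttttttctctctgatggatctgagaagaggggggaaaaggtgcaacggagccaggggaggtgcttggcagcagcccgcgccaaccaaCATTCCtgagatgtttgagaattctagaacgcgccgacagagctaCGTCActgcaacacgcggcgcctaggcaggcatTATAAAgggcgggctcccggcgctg
The first capitals, from -103 to -98 relative to the start, are the TEAD motif GGAATG read on the opposite strand. The second, from -58 to -54, are TGACG, the core of the cAMP response element, also on the opposite strand, and the third, from -25 to -20, are the TATA box TATAAA. Both strands were searched, and the matches do not overlap. Of 32841 mouse promoters of the same length, 12.6% held the TEAD motif, 17.8% the TGACG core and 12.4% the TATA box. The CArG box bound by serum response factor, held by 1.47% of promoters, had no match in this window. A match is a run of letters and not a measured binding site.

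Sequencing depth was 28533427 to 34830718 estimated counts in Htr2b_cKO libraries, against 37392496 and 28565473 in control libraries, and every value of Ccn1 to Ccn5 below rests on 1463 counts or more. Values are CPM, the count as a share of the scaled library size. The sorted receptor's own gene, Pdgfra, had 668 to 1126 CPM in Htr2b_cKO libraries and 732 and 1237 CPM in control libraries. Htr2b had 0, 3, 29 and 4 counts in Htr2b_cKO libraries 1 to 4, against 13 and 7 in the control libraries. The library labelled Htr2b_cKO 3 thus lay above both controls for the targeted gene, although a count of the whole gene cannot show a deleted exon. The log2 fold change of Htr2b was -0.11 (edgeR adjusted p = 0.982). Postn had 1350, 1526, 2312 and 982 CPM in Htr2b_cKO libraries 1 to 4, against 2309 and 1586 CPM in control libraries. For Postn, Htr2b_cKO 3 was level with control 1 and the other Htr2b_cKO libraries lay below both controls. The cause was not tested. Htr2b_cKO 4 was the only male library, with 0.267 CPM of the X-inactivation RNA Xist and 26.6 CPM of the Y-linked gene Kdm5d. Kdm5d also had 0.483 CPM in Htr2b_cKO 3, where Xist had 636 CPM. It had 0.0301 CPM in Htr2b_cKO 2 and 0 in Htr2b_cKO 1 and both controls. The source of these reads was not tested. Summed macrophage markers ran from 303 to 3874 CPM in Htr2b_cKO libraries and were 2315 and 697 CPM in control libraries, with none of the 8 markers at 0. In bulk RNA, fewer cells of a type and less RNA per cell cannot be told apart.

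All 5 CCN genes were expressed, in the same broad order in both genotypes. Levels are compared between genes per kilobase of exon (CPM per kb). The length is that of all annotated exons of a gene over its transcripts, with overlaps counted once. It was 5565 nt for Ccn4, 1924 nt for Ccn5, 2019 nt for Ccn1, 2861 nt for Ccn2 and 2869 nt for Ccn3. Ccn1 led with 299 ± 87 CPM per kb in Htr2b_cKO and 250.3 ± 9.2 CPM per kb in control libraries (SD, n = 4 and n = 2, as for all means below). Ccn2 followed with 120.3 ± 21.8 CPM per kb in Htr2b_cKO and 96.9 ± 42.9 CPM per kb in control libraries. Averaged over the 6 libraries, Ccn1 ranked 167 of the 15840 tested genes on this scale and Ccn2 ranked 444.

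Ccn5 and Ccn3 came next and Ccn4 last in all but 1 library, Htr2b_cKO 4, where Ccn3 was lowest. The last place of Ccn4 depends on the length used. In CPM, before division by length, Ccn4 lay above Ccn5 in Htr2b_cKO 1 (97.0 against 64.1 CPM). It also lay above Ccn3 in control 1 (56.7 against 48.1 CPM). Ccn5 had 55.4 ± 15.5 CPM per kb in Htr2b_cKO and 41.2 ± 9.2 CPM per kb in control libraries. For Ccn3 the levels were 45.8 ± 19.8 CPM per kb in Htr2b_cKO and 27.7 ± 15.4 CPM per kb in control libraries. Ccn4 had 14.5 ± 4.5 CPM per kb in Htr2b_cKO and 10.4 ± 0.3 CPM per kb in control libraries, which still placed it above 79.7% of tested genes. The ranges of Ccn1 (196 to 405 CPM per kb) and Ccn2 (66.5 to 138 CPM per kb) over the 6 libraries did not overlap. The other neighbours in the order did: Ccn2 with Ccn5 (33.3 to 66.9), Ccn5 with Ccn3 (16.5 to 58.4) and Ccn3 with Ccn4 (7.94 to 17.4 CPM per kb). Ccn6, the remaining gene of the family, had 0, 1, 0 and 3 counts in Htr2b_cKO libraries and 5 and 0 counts in control libraries, and it did not enter the test.

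**Figure D1:**
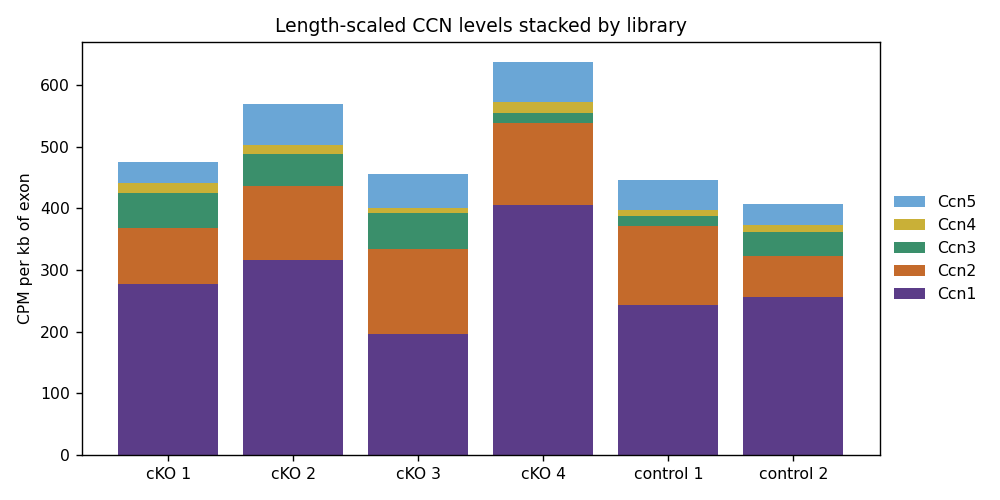
Level of each CCN gene in CPM per kb of exon (vertical axis), stacked for each library, with the 4 Htr2b_cKO libraries (cKO) left of the 2 control libraries. Ccn1 is the largest block in every library, and the Ccn3 block is thinnest in Htr2b_cKO 4 and control 1.

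The makeup of the family differed from library to library within each genotype. Ccn1 made up 43.0% to 63.5% of the summed CCN level per kb in Htr2b_cKO libraries and 54.7% and 63.1% in control libraries. The lowest share was in the library labelled Htr2b_cKO 3, where Ccn2 reached its highest share, 30.2%. Ccn2 was 18.9% to 30.2% of the sum in Htr2b_cKO libraries and 28.5% and 16.3% in control libraries. Its ratio to Ccn5, the member without the cystine knot, was 1.79 to 2.70 in Htr2b_cKO libraries, and the control ratios of 2.67 and 1.91 lay inside that range. The summed level itself was 475, 570, 456 and 638 CPM per kb in Htr2b_cKO libraries and 446 and 407 CPM per kb in control libraries. The sum did not overlap between the groups, with Htr2b_cKO 3 next to control 1; no test was made of it, and 19.6% of single genes tested had groups that did not overlap.

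For no CCN gene was a difference between genotypes shown beyond the spread between libraries. In the edgeR fit over 15840 genes, 0 of 5 members passed the adjusted p of 0.05, where 3 genes (0.0189%) passed in all. At an unadjusted p under 0.05 there were also 0 of 5, against 9.59% of tested genes. DESeq2 called 0 of 5 as well, against 0.647% of its genes, and limma voom 0 of 5, against 0.0126%. All 5 estimates were above 0, as were 50.0% of all tested genes, and that of Ccn2 was below 0 without control 2. The median log2 fold change of the 5 was 0.42, and that of all tested genes was -0.000125. None of the 5 had groups that did not overlap, against 19.6% of genes. Without both the library labelled Htr2b_cKO 3 and the male library Htr2b_cKO 4, the log2 fold changes were 0.25 for Ccn1, 0.11 for Ccn2, 0.97 for Ccn3, 0.65 for Ccn4 and 0.28 for Ccn5, and edgeR called none of them (adjusted p of 0.399 or more). Only Ccn4 had an unadjusted p under 0.05 there (0.00483, edgeR), against 9.69% of genes.

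**Figure D2:**
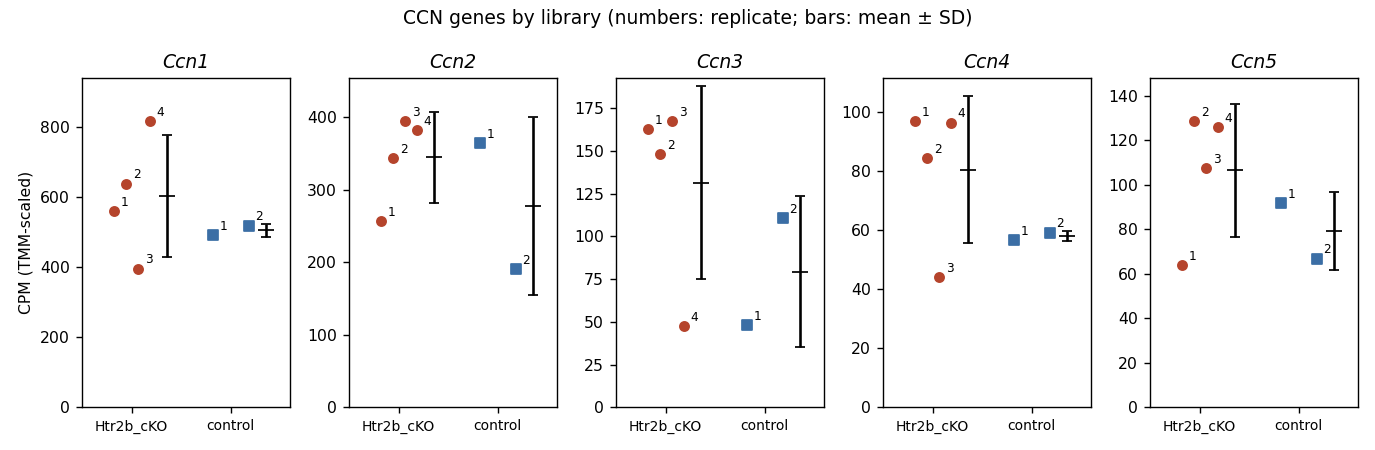
CPM of each CCN gene (vertical axes start at 0) in the 4 Htr2b_cKO libraries (circles, left) and the 2 control libraries (squares, right), with replicate numbers and the mean ± SD as bars. In every panel at least 1 Htr2b_cKO library lies at or below a control library.

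Ccn1, an adhesive ligand for integrins on endothelial cells and fibroblasts, had 561, 638, 396 and 817 CPM in Htr2b_cKO libraries 1 to 4, against 492 and 518 CPM in control libraries. Of the Htr2b_cKO libraries 3 lay above both controls and Htr2b_cKO 3 lay below both. The means were 603 ± 175 CPM in Htr2b_cKO and 505 ± 19 CPM in control libraries (log2 fold change 0.26, SE 0.26, edgeR adjusted p = 0.788). The 95% interval of the fold change ran from 0.789 to 1.81. Without Htr2b_cKO 4 the log2 fold change was 0.07, and without Htr2b_cKO 3 it was 0.42.

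Ccn2, the profibrotic growth regulator, had 257, 343, 395 and 382 CPM in Htr2b_cKO libraries 1 to 4, against 364 and 190.3 CPM in control libraries. The control libraries differed from each other by more than the group means did. Only Htr2b_cKO 3 and Htr2b_cKO 4 lay above both. The means were 344 ± 62 CPM in Htr2b_cKO and 277 ± 123 CPM in control libraries (log2 fold change 0.31, SE 0.28, edgeR adjusted p = 0.75), with a 95% interval of the fold change from 0.796 to 1.94. The direction hung on the choice of control: the log2 fold change was 0.85 without control 1 and -0.074 without control 2. The unadjusted p without control 1 was 0.0162 (edgeR adjusted p = 0.999), in a fit where 3.25% of genes had an unadjusted p under 0.05.

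Ccn3, which can bind the receptor Notch1, varied most. It had 163, 148, 168 and 47.4 CPM in Htr2b_cKO libraries 1 to 4, against 48.1 and 111 CPM in control libraries. The values fell into no order by genotype: Htr2b_cKO 4 was the lowest of the 6 libraries and control 1 stood beside it, while the other Htr2b_cKO libraries stood above both controls. The means were 131 ± 57 CPM in Htr2b_cKO and 79.4 ± 44.2 CPM in control libraries (log2 fold change 0.73, SE 0.59, edgeR adjusted p = 0.728). The 95% interval of the fold change, from 0.603 to 4.56, was the widest of the 5. Without Htr2b_cKO 4 the log2 fold change was 1.01 (edgeR unadjusted p = 0.0207, adjusted p = 0.528), in a fit where 8.40% of genes had an unadjusted p under 0.05. The estimate was 0.25 without control 1 and 1.46 without control 2.

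Ccn4, first described as Wnt1-inducible, had 97.0, 84.4, 44.2 and 96.4 CPM in Htr2b_cKO libraries 1 to 4, against 56.7 and 59.1 CPM in control libraries. As for Ccn1, 3 Htr2b_cKO libraries lay above both controls and Htr2b_cKO 3 lay below both. The means were 80.5 ± 24.9 CPM in Htr2b_cKO and 57.9 ± 1.7 CPM in control libraries (log2 fold change 0.47, SE 0.30, edgeR adjusted p = 0.657), with a 95% interval of the fold change from 0.848 to 2.28. Without Htr2b_cKO 3 the log2 fold change was 0.69 (edgeR unadjusted p = 0.000921, adjusted p = 0.218). In that fit 12.6% of all tested genes had an unadjusted p under 0.05, and Ccn4 was not called.

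Ccn5, the member with the shortest coding sequence, had 64.1, 129, 107 and 126 CPM in Htr2b_cKO libraries 1 to 4, against 91.8 and 66.9 CPM in control libraries. Here Htr2b_cKO 1 was the lowest of the 6 and the remaining Htr2b_cKO libraries were above both controls. The means were 107 ± 30 CPM in Htr2b_cKO and 79.3 ± 17.6 CPM in control libraries (log2 fold change 0.42, SE 0.29, edgeR adjusted p = 0.676). The 95% interval of the fold change was 0.842 to 2.14, and the estimate was 0.67 without control 1 and 0.22 without control 2. Without Htr2b_cKO 1 it was 0.61 (edgeR unadjusted p = 0.0156, adjusted p = 0.649), where 7.44% of genes had an unadjusted p under 0.05. With the GC and length correction the estimate was 0.67 (edgeR unadjusted p = 0.0314, adjusted p = 0.967), where that share was 4.89%.

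The deposited normalization gave like ratios. In the authors' deposited table of normalized signal, the Htr2b_cKO mean divided by the control mean was 1.19 for Ccn1, 1.24 for Ccn2, 1.61 for Ccn3, 1.36 for Ccn4 and 1.33 for Ccn5.

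**Figure D3:**
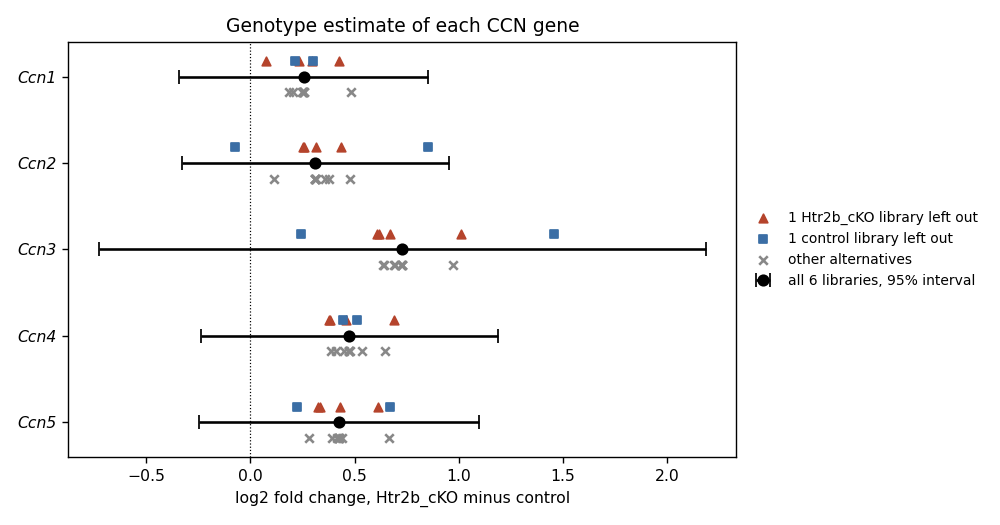
Log2 fold change of each CCN gene (horizontal axis, Htr2b_cKO minus control; dotted line at 0), with the 95% interval of the fit to all 6 libraries, the estimates with 1 library left out, and those under other processing. Every interval spans 0, and for Ccn2, Ccn3 and Ccn5 a control left out moves the estimate most.

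The members varied between libraries more than most genes of like abundance. The SD of log2 CPM over the 6 libraries was 0.86 for Ccn3, more than in 99.0% of 1359 tested genes within 0.5 log2 CPM of it. For Ccn4 it was 0.47, above 94.3% of genes of like level, and for Ccn5 0.44, above 92.8%. Ccn2 had an SD of 0.41 (above 89.0%) and Ccn1 of 0.36 (above 80.0%). The median SD of the genes of like level was 0.19 to 0.22. The ratio of the highest to the lowest library was 3.53 for Ccn3 and 2.01 to 2.20 for the other members.

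Ccn1 and Ccn4 had like orders of libraries, each with Htr2b_cKO libraries 1, 2 and 4 on top, then control 2, control 1 and Htr2b_cKO 3. The summed markers of fibroblasts (Pdgfra, Col1a1, Col1a2, Dcn, Tcf21 and Lum) were, as for Ccn1 and Ccn4, lowest in Htr2b_cKO 3. They were highest in Htr2b_cKO 4, as was Ccn1, while Ccn4 was highest in Htr2b_cKO 1. They amounted to 70455, 61391, 41379 and 73390.4 CPM in Htr2b_cKO libraries 1 to 4, against 52943 and 63579 CPM in control libraries. Most of this sum came from Col1a1 and Col1a2, with 17266 and 16903 CPM in Htr2b_cKO 3. The single markers did not all go this way. Pdgfra was lowest in Htr2b_cKO 3 (668 CPM), but Dcn was highest there, at 4884 CPM against 3365 to 4795 CPM in the other libraries. The macrophage markers ran the other way from the fibroblast sum. They had 724, 1945, 3874 and 303 CPM in Htr2b_cKO libraries 1 to 4, against 2315 and 697 CPM in control libraries. With the log2 macrophage sum as a covariate the log2 fold change was 0.18 for Ccn1 (edgeR adjusted p = 0.694) and 0.39 for Ccn4 (adjusted p = 0.477), a fit chosen after seeing the data. In that fit the estimates of Ccn2, Ccn3 and Ccn5 were 0.36, 0.64 and 0.44, against 0.31, 0.73 and 0.42 without the covariate. Ccn2 and Ccn5 did not share the library order of Ccn1 and Ccn4, and Ccn2 was highest in Htr2b_cKO 3.

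**Figure D4:**
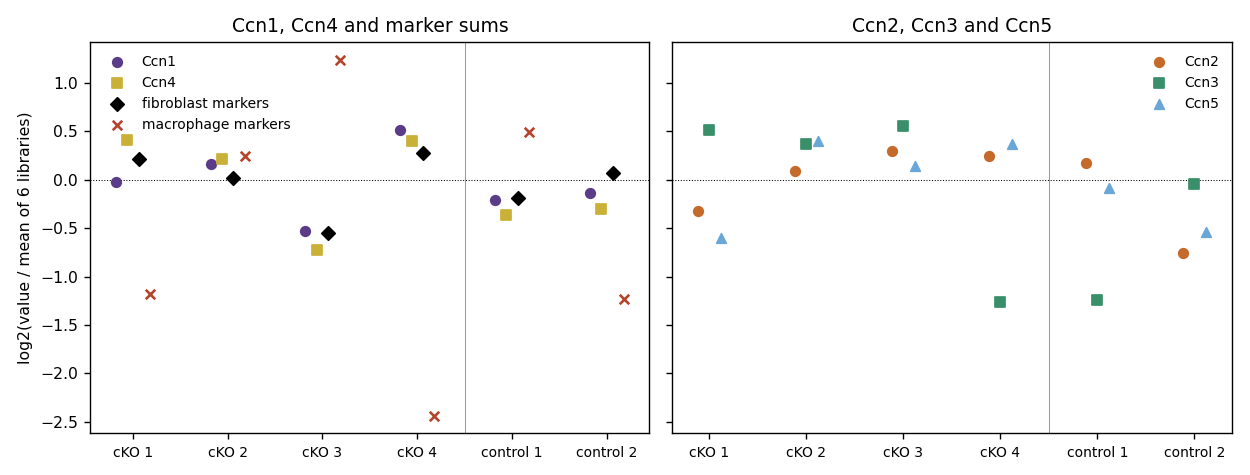
Log2 ratio of each library's value to the mean of the 6 libraries (vertical axis) for Ccn1, Ccn4 and the summed fibroblast and macrophage markers (left), and for Ccn2, Ccn3 and Ccn5 (right); Htr2b_cKO libraries (cKO) stand left of the control libraries. Ccn1, Ccn4 and the summed fibroblast markers, mostly Col1a1 and Col1a2, are all lowest in Htr2b_cKO 3, where the macrophage markers are highest. Ccn3 is low in Htr2b_cKO 4 and control 1.

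Ccn3 was low in Htr2b_cKO 4 and control 1, and the neutrophil markers were high in the same pair. They summed to 27.5, 30.5, 37.7 and 86.3 CPM in Htr2b_cKO libraries 1 to 4, against 102 and 35.7 CPM in control libraries, with Ly6g alone of 6 markers at 0 in some library. Most of the neutrophil sum in this pair came from S100a9 and S100a8. S100a9 had 42.2 CPM in Htr2b_cKO 4 and 45.4 CPM in control 1, and S100a8 had 23.3 and 32.5 CPM. The endothelial markers were 101 to 132 CPM in Htr2b_cKO libraries and 388 and 103 CPM in control libraries, with none of 7 at 0. Their part in the Ccn3 values was not tested. Marker sums that were lower in every Htr2b_cKO library were those of B and plasma cells (211 to 1270 CPM in Htr2b_cKO libraries, 1550 and 1503 CPM in control libraries), epicardial and mesothelial cells (242 to 317.6 CPM in Htr2b_cKO libraries, 318.2 and 415 CPM in control libraries), Schwann cells (22.3 to 27.3 CPM in Htr2b_cKO libraries, 31.1 and 35.2 CPM in control libraries) and T and NK cells (0.214 to 1.39 CPM in Htr2b_cKO libraries, 2.68 and 1.41 CPM in control libraries). Single markers that lay below both controls in every Htr2b_cKO library were 3 of 7 for B and plasma cells, 2 of 6 for epicardial and mesothelial cells, 1 of 5 for Schwann cells and 3 of 6 for T and NK cells, where 19.6% of all tested genes did not overlap in one direction or the other. Another 2 of the 5 Schwann markers lay above both controls in every Htr2b_cKO library. The part of these cells in the CCN values was not tested.

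Other genes tracked each member closely over the 6 libraries, as is common with so few points among 9706 protein-coding genes. The likeness is Pearson's r of log2 CPM over 6 libraries and carries no test. Closest to Ccn1 were the cAMP phosphodiesterase gene Pde4d (r = 0.99), the retinol carrier gene Rbp4 (0.99) and the ephrin gene Efna5 (0.99). Closest to Ccn4 were Pigb, of glycolipid anchor synthesis (0.99), the splicing cofactor gene Srrm1 (0.99) and the ephrin gene Efnb2 (0.98). Efnb2 had 93.2, 66.7, 37.8 and 91.3 CPM in Htr2b_cKO libraries 1 to 4, against 49.1 and 52.2 CPM in control libraries, the arrangement seen for Ccn4. For Ccn2 the nearest were Swap70 (0.99), the potassium channel gene Kcnj15 (0.98) and Zmat5 (0.98). Kcnj15 had 10.1, 14.1, 23.0 and 22.3 CPM in Htr2b_cKO libraries 1 to 4, against 18.1 and 6.65 CPM in control libraries. Ccn3 was followed by Cops4 of the COP9 signalosome (0.99), Btbd1 (0.98) and Asnsd1 (0.97), and Ccn5 by the UDP-xylose synthase gene Uxs1 (0.98), Zbtb8os (0.97) and the lysyl oxidase family gene Loxl3 (0.97). The number of genes with r above 0.9 was 116 for Ccn1, 17 for Ccn2, 39 for Ccn3, 167 for Ccn4 and 18 for Ccn5.

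Genes that connect to the CCN proteins were taken as 7 lists, and edgeR called none of their tested members in either direction. The counts at an unadjusted p under 0.05 given below stand against 9.59% of all tested genes. Those of estimates above 0 stand against 50.0%, and the medians against -0.000125. Among 14 receptors, 6 estimates were above 0 and 8 were below, and the median was -0.06 on the log2 scale. Itgb1, the integrin subunit shared by several CCN receptors, had 869 ± 48 CPM in Htr2b_cKO and 736 ± 69 CPM in control libraries (edgeR adjusted p = 0.651). Lrp1, an endocytic receptor of CCN2, had 2279 ± 608 CPM in Htr2b_cKO and 2181 ± 213 CPM in control libraries (edgeR adjusted p = 0.957). The 1 receptor gene with an unadjusted p under 0.05 was Itga2b, at 8.08 ± 1.69 CPM in Htr2b_cKO and 13.1 ± 0.9 CPM in control libraries (edgeR adjusted p = 0.41).

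Of 11 growth factors and matrix molecules that CCN proteins bind, 6 estimates were above 0, the median was 0.09 and 0 had an unadjusted p under 0.05. Igf1, the growth factor named for its likeness to insulin, had 232 ± 20 CPM in Htr2b_cKO and 168 ± 59 CPM in control libraries (edgeR adjusted p = 0.537). Of 9 proteases that can cleave CCN proteins, 5 passed the filter on low counts, with a median of 0.15. The gelatinase gene Mmp9 was the 1 with an unadjusted p under 0.05, at 23.9 ± 5.1 CPM in Htr2b_cKO and 41.3 ± 16.8 CPM in control libraries (edgeR adjusted p = 0.427).

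Upstream of Ccn1 and Ccn2, 10 of 21 YAP, SRF and SMAD inputs had an estimate above 0 and 11 below, with a median of -0.0014. Of these, 2 had an unadjusted p under 0.05 on the higher side and 1 on the lower. The TGF-β receptor gene Tgfbr1 had 95.5 ± 10.2 CPM in Htr2b_cKO and 62.8 ± 14.9 CPM in control libraries (edgeR adjusted p = 0.393). Tead4, a partner of YAP, was close to the detection limit at 0.128 ± 0.106 CPM in Htr2b_cKO and 0.748 ± 0.598 CPM in control libraries (edgeR adjusted p = 0.401). Of 18 other YAP targets, 12 were above 0 and the median was 0.15. The 1 with an unadjusted p under 0.05 was Rbms3, at 57.7 ± 9.3 CPM in Htr2b_cKO and 41.1 ± 8.2 CPM in control libraries (edgeR adjusted p = 0.478).

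For canonical Wnt mediators and targets, the pathway after which Ccn4 and Ccn5 were once named, 13 of 15 genes were tested, 8 were above 0, the median was 0.29 and 0 had an unadjusted p under 0.05. Nkd1, a feedback inhibitor, had 35.4 ± 6.5 CPM in Htr2b_cKO and 46.03 ± 0.66 CPM in control libraries (edgeR adjusted p = 0.56). Of 24 immediate early genes, the class to which Ccn1 belongs, 19 were above 0 and the median was 0.14. The nuclear receptor gene Nr4a2 was the 1 with an unadjusted p under 0.05, at 57.6 ± 15.5 CPM in Htr2b_cKO and 33.4 ± 9.7 CPM in control libraries (edgeR adjusted p = 0.461). Fos had 2281 ± 192 CPM in Htr2b_cKO and 2060 ± 288 CPM in control libraries (edgeR adjusted p = 0.8298).

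**Figure D5:**
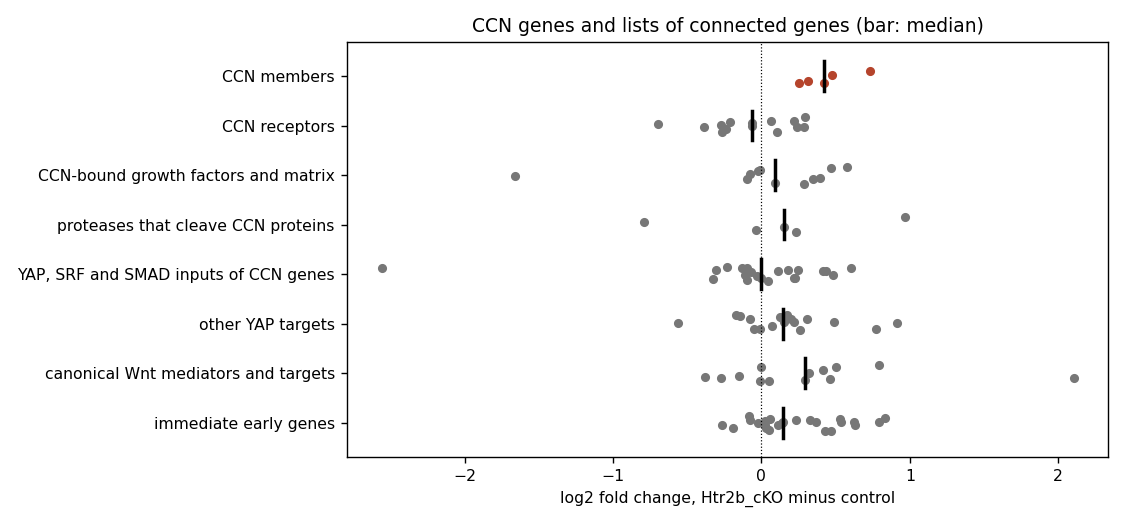
Log2 fold change (horizontal axis, Htr2b_cKO minus control) of the 5 CCN genes (top) and of the tested genes of 7 lists of receptors, bound factors, proteases, inputs and targets; each point is a gene, each bar a list's median and the dotted line 0. The CCN genes lie between 0.26 and 0.73, inside the ranges of the proteases, other YAP targets, Wnt genes and immediate early genes, and no point passed the adjusted test.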

How the data were processed

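The authors deposited estimated counts per Ensembl gene, as whole numbers without normalization, which were used as they are. They also deposited a table of normalized signal, whose ratio to the estimated counts varies by gene as well as by library. DRAGEN, DESeq2 and the build mm10 are named per the submitters' processing notes, without version or role. The labels' protocols name a directional library kit, with strand and annotation settings of the counting not given in the sources used here. All 42256 identifiers were found in a GENCODE annotation of GRCm38. Groups followed the genotype label. Replicate numbers only name libraries and pair nothing. Each library was taken as 1 animal, as the design counts animals; p-values measure the spread between these libraries. No library was a copy of another (chi-square per degree of freedom of 50.4 or more in all 15 pairs).

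The test was edgeR 4.0.16 in R 4.3.3 (quasi-likelihood F, TMM, filterByExpr, robust, two-sided), with genotype as the only term and Benjamini-Hochberg adjustment over 15840 genes. SE is the log2 fold change over the square root of F. Alternatives were DESeq2 1.42.0, limma voom 3.58.1, other size factors, no filter, the legacy dispersion, the authors' factors, a GC and length correction, leaving out libraries, and, chosen after seeing the data, the macrophage sum as a covariate. With 2 against 4 libraries a permutation test cannot go below 0.0667. A count of 0 allows 3 counts, or 0.0781 to 0.108 CPM, for counting error only.

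The members, lists and tests were chosen with earlier results of these data known. Named genes were the members, Ccn6, Htr2b, Postn, the 3 most alike genes per member (mean log2 CPM of at least 3), up to 4 called or the 2 lowest-p and the 2 most abundant genes per list, the 2 most abundant markers per list, Xist and Kdm5d; Pdgfra, the sorting marker, was added. Not all are described. No per-sample column was left unused.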

Additional observations from a re-analysis of the deposited data

Results flagged for a closer look

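Within the 4 Htr2b_cKO libraries, Ccn3 in Htr2b_cKO 4 (47.4 CPM) stood far from the other libraries, which had 148 to 168 CPM. Its gap to the next library was 0.837 of the group's range, against a critical value of 0.829. Control 1 had a like value, 48.1 CPM. Htr2b_cKO 4 is also the only male library, so sex and this library cannot be told apart.

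Htr2b in Htr2b_cKO 3, at 0.876 CPM or 29 counts, stood far above the other Htr2b_cKO libraries, which had 0 to 4 counts. The summed endothelial markers in Htr2b_cKO 2 (101 CPM) were set apart below 128 to 132 CPM in the other Htr2b_cKO libraries, a small distance beside the 388 CPM of control 1. In all, 18 values were screened and 3 were set apart; chance sets apart about 1 in 20.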

How the results depend on the processing

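None of the alternatives called a CCN gene, while 0.00601% to 0.647% of all genes tested were called. Over 15 alternatives for each of 5 members, 74 estimates kept their direction and 1 turned: Ccn2 without control 2 (-0.074). Leaving out 1 library at a time gave log2 fold changes of 0.07 to 0.42 for Ccn1, -0.074 to 0.85 for Ccn2, 0.25 to 1.46 for Ccn3, 0.38 to 0.69 for Ccn4 and 0.22 to 0.67 for Ccn5. Of these 75 estimates, 6 had an unadjusted p under 0.05. The lowest adjusted p over all alternatives was 0.218, for Ccn4 without Htr2b_cKO 3. After the GC and length correction the estimate was 0.48 for Ccn1, 0.48 for Ccn2 and 0.67 for Ccn5; the cause was not tested.

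The number of genes called over all tested genes was 3. It was 105 with DESeq2, 5 without the filter on low counts, 5 without both Htr2b_cKO 3 and Htr2b_cKO 4, 15 with the macrophage sum as a covariate, and 1 (without control 1) to 8 (without Htr2b_cKO 4) when 1 library was left out; it was 6 without control 2. The cause of the differences was not tested. No gene of the 7 lists was called under any of the 15 alternatives. When 1 library was left out, list medians ranged from -0.056 to 0.17 for receptors, 0.073 to 0.33 for bound factors, -0.0055 to 0.12 for inputs, 0.070 to 0.24 for Wnt genes and 0.018 to 0.40 for immediate early genes; the median of the proteases was -0.19 without both Htr2b_cKO 3 and Htr2b_cKO 4.

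No paired analysis was possible because the labels give no replicate numbers that groups share. The pair of controls limits every comparison.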
